A study of Mus musculus with 6 samples.

Results

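Reads of 10 genes of epithelium were followed in the 6 libraries, out of 41457 genes in the deposited tables. 8 of them are genes of the thymic stroma or of epithelium in general (*Psmb11*, *Prss16*, *Ccl25*, *Foxn1*, *Aire*, *Krt5*, *Krt8* and *Epcam*), and the remaining 2, *Bpifa1* and *Cyp2f2*, are known from the lining of the airways. The list was chosen by name. *Bpifa1* and *Cyp2f2* were selected on their measured reads, because they had been seen in Nc1Bio libraries. Their levels are therefore given as a description, and nothing is read from an interval or a call for them.

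The libraries were made from poly(A) RNA of thymocytes that lack CD4 and CD8 (double-negative or DN), the early T cell precursors of the thymus. Cells carrying CD4 or CD8 were removed with magnetic beads, and no step removed or selected other cells of the thymus by name. Mice of both groups had the biotin ligase BirA from the *Rosa26* locus on a C57/B6 background and, per the study's methods, were sex- and age-matched and 4 to 6 weeks old. The 3 BirA libraries, whose genotype the labels give as WT, came from mice with the ligase alone. The 3 Nc1Bio libraries, labelled NFATc1 overexpression, came from mice that also carried a bacterial artificial chromosome. Per the study, it gives an extra copy of NFATc1, with a biotin tag on NFATc1/A. Which cells of the thymus other than thymocytes express this copy is not stated there and was not tested. Separate animals are not stated for the replicates, so every p-value below covers only how the 6 libraries varied, which may in part be technical.

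The thymus is built by epithelial cells that thymocytes depend on at each step. Thymic epithelium, cortical and medullary, depends on the transcription factor Foxn1. Cortical epithelium attracts precursors with chemokines such as Ccl25 and makes its own proteasome subunit, Psmb11, and the protease Prss16 for positive selection. Medullary epithelium uses Aire to express genes of other tissues and so to present self antigens to developing T cells. Among such other tissues is the airway, whose club and goblet cells secrete Bpifa1, secretoglobins and mucins and express the cytochrome P450 Cyp2f2.

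The identity of the libraries was checked first. *Nfatc1* stood at 573 ± 23.2 CPM (counts per 1000000 unique gene reads, with library sizes scaled by TMM) in Nc1Bio against 126 ± 27.8 CPM in BirA (SD, n = 3 each). A list of 15 DN thymocyte genes summed to between 4339 and 5597 CPM, and all 15 were tested. *Lck*, *Cd3g* and *Il2ra* led this list by reads. *Ptcra* stood at 9.44 to 34.2 CPM, *Rag1* at 2.41 to 9.32 CPM and *Rag2* at 1.87 to 4.47 CPM. The libraries held 11845952 to 15393763 unique gene reads, so that 0 reads in a library allows up to 0.192 to 0.249 CPM (3 reads), for counting error only. *Foxn1*, a defining gene of thymic epithelium, and *Psmb11*, one of its cortical part, had fewer than 3 reads in every library. Both are on the cortical list, whose most abundant genes were *Ly75* and *Ctsl*, which other thymic cells also express. The listed DN thymocyte genes thus had reads in all 6 libraries, but their sum does not by itself set DN cells apart from other T lineage cells. Of the co-receptor genes, *Cd4* stood at 0.83 to 6.84 CPM, *Cd8a* at 4.24 to 14.0 CPM and *Cd8b1* at 14.4 to 33.6 CPM. The purity of the DN cells was not tested. *Foxn1*, *Psmb11* and *Aire* were at or near 0, and *Prss16* and *Ccl25* had reads above the limit in all 6 libraries, so the 8 genes are called thymic and epithelial by what they are known for.

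Promoters of some airway-type genes are shown, chosen among those that appeared in the same libraries. Each line holds the RefSeq sequence (GRCm38.p6) from 250 bases before to 50 bases after the gene's start, in lower case, with the TATA-type hexamer TATAAA and the NFAT-type hexamer GGAAAA, searched on both strands, in capitals. The shorter NFAT-type core GGAAA was not searched, and it also occurs in windows without the hexamer, such as those of *Cyp2f2* and *Scgb3a1*. They are *Bpifa1* (chr2:154142630-154142929, + strand), its neighbour *Bpifb1* (chr2:154190568-154190867, + strand), *Cyp2f2* (chr7:27119705-27120004, + strand), the secretoglobin *Scgb3a1* (chr11:49663345-49663644, + strand) and *Reg3g* (chr6:78468825-78469124, - strand). *Bpifb1* has a further RefSeq start downstream, whose window (chr2:154200130-154200429, + strand) held neither hexamer and is not printed.

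Bpifa1: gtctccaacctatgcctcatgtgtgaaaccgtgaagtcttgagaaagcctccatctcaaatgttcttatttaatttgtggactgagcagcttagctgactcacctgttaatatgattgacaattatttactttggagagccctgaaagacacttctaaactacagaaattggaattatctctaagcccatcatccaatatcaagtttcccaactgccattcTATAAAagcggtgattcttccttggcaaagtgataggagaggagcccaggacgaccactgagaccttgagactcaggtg
Bpifb1: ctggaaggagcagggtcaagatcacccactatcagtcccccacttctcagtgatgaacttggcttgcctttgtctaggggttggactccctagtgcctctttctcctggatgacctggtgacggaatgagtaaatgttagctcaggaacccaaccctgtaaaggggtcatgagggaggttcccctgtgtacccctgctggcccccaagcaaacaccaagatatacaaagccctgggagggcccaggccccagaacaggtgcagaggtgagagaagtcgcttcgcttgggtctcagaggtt
Cyp2f2: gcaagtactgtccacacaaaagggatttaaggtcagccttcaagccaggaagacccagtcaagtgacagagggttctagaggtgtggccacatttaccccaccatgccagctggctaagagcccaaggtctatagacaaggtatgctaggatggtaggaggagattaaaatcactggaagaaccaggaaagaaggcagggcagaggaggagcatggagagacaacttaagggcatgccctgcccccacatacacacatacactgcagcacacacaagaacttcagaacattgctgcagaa
Scgb3a1: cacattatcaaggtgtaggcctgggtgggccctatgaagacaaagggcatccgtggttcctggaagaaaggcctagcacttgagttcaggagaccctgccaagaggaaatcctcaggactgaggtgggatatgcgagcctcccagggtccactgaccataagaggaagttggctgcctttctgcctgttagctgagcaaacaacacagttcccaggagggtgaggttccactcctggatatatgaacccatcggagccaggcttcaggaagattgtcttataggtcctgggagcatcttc
Reg3g: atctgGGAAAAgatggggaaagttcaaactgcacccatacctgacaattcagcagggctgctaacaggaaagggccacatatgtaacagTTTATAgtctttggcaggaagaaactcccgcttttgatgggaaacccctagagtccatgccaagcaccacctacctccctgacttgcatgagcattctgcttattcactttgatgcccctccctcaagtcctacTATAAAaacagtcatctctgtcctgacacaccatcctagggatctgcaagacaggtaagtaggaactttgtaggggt

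TATAAA lay 29 bases before the start of *Bpifa1*, and *Reg3g* held it at 27 bases before the start and once more on the opposite strand. The windows of *Cyp2f2*, *Bpifb1* and *Scgb3a1* held neither hexamer. Of the 5 windows only that of *Reg3g* held GGAAAA. Among the 11 airway secretory genes with an entry, *Sec14l3*, whose window is not printed, held it too, just after the start. *Sec14l3* had 0 reads in every BirA library and 7, 3 and 0 in Nc1Bio replicates 1, 2 and 3. Among all 32851 promoter windows of RefSeq, 13.6% held TATAAA and 23.4% held GGAAAA. Of the 10 genes, 9 had an entry; *Prss16* had none. TATAAA was present for 4 of these 9 genes (*Bpifa1*, *Aire*, *Krt8* and the downstream of the 2 starts of *Ccl25*) and GGAAAA for 1, *Krt8*. The matches to TATAAA on the 2 strands of *Krt8* overlap, and no match to one motif overlapped a match to the other. A match of letters is a description and not a binding site.

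*Bpifa1* (ENSMUSG00000027483, chromosome 2, 154142880 to 154149219, + strand, GRCm38) encodes a secreted antimicrobial protein of the upper airways. It had 0 reads in each of the 3 BirA libraries. In Nc1Bio it had 365, 151 and 10 reads in replicates 1, 2 and 3, which is 30.4, 11.4 and 0.77 CPM and 14.2 ± 14.98 CPM on average (SD, n = 3). All Nc1Bio libraries lay above all BirA libraries, but the highest and the lowest of them differed far more than is usual between replicates here. Against a floor of 3 reads over the BirA group, *Bpifa1* was at least 197-fold higher in the pooled reads of Nc1Bio. Without Nc1Bio replicate 1 the Nc1Bio mean was 6.11 CPM, and without replicate 3 it was 20.9 CPM. For scale, the groups did not overlap in 18.4% of the 12224 genes that passed the low-count filter, a filter *Bpifa1* itself did not pass. Nothing is read from this, since the gene was picked for its Nc1Bio reads.

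*Cyp2f2* (ENSMUSG00000052974, chromosome 7, 27119909 to 27133660, + strand), a cytochrome P450 of club cells, followed the same libraries at a lower level. It had 1, 0 and 1 reads in BirA and 74, 49 and 0 reads in Nc1Bio replicates 1, 2 and 3. In CPM the Nc1Bio libraries stood at 6.15, 3.71 and 0, with a mean of 3.29 ± 3.10 (SD, n = 3), and the BirA mean was 0.047 ± 0.041. Nc1Bio replicate 3 thus lay with the BirA libraries, and the groups overlapped. The pooled reads gave a 69.1-fold higher share in Nc1Bio, with an exact 95% counting interval of 18.7 to 577 that rests on 2 BirA reads and does not include the spread between libraries. Nothing is read from this fold or its interval, since the gene was picked for its Nc1Bio reads. The Nc1Bio mean was 1.86 CPM without replicate 1, 3.08 CPM without replicate 2 and 4.93 CPM without replicate 3.

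**Figure D1:**
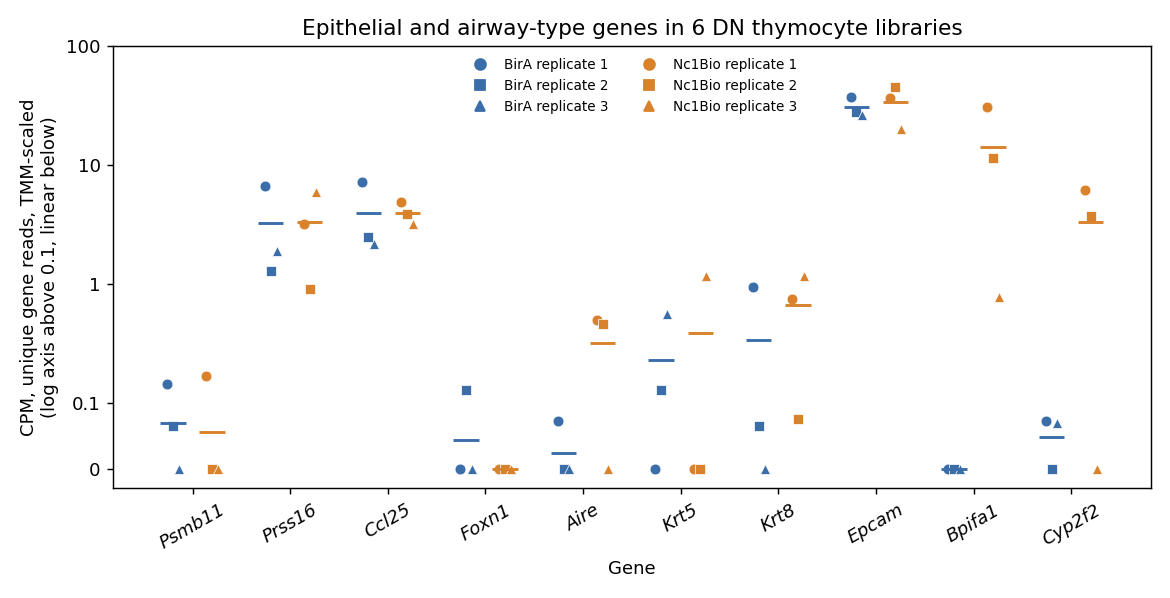
CPM of the 10 genes in each library, with TMM-scaled library sizes; points are libraries (blue BirA, orange Nc1Bio, shapes for replicates) and short lines are group means. The axis is logarithmic above 0.1 and linear below. *Epcam* lies between 19.9 and 44.8 CPM in all 6 libraries, the other 7 thymic and epithelial genes overlap between the groups, and *Bpifa1* and *Cyp2f2* are high in Nc1Bio replicates 1 and 2.

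The reads of both airway-type genes looked like spliced messenger RNA. Of the unique exon reads of *Bpifa1*, 51.5% crossed an exon junction (Wilson 95% interval 47.3 to 55.8, 524 reads), and of those of *Cyp2f2* 42.7% did (34.4 to 51.5, 124 reads). The median over the tested genes was 23.4% and the upper quartile 35.5%. Intronic reads made up 0.38% of *Bpifa1* gene reads and 0.80% of those of *Cyp2f2*, against a median of 1.39%. All 526 reads of *Bpifa1* mapped uniquely, while 125 of 154 *Cyp2f2* reads did, so that the others had another possible position. An antisense gene that overlaps *Cyp2f2*, *Gm15883*, had 0 reads in every library.

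**Figure D2:**
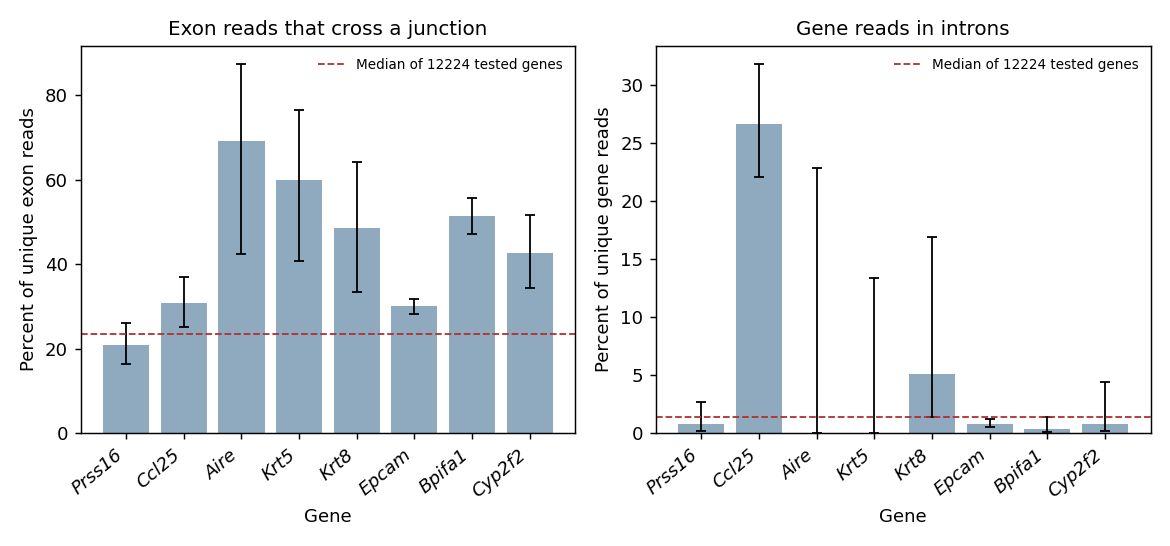
Left, percent of unique exon reads that cross an exon junction; right, percent of unique gene reads that lie in introns, for the 8 genes with at least 10 reads over all libraries. Bars are pooled over the 6 libraries, error bars are Wilson 95% intervals for counting error, and the dashed line is the median of the 12224 tested genes; *Ccl25* stands out at 26.6% intronic reads and *Bpifa1* has 51.5% junction reads.

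Some other genes of airway secretory cells had most of their reads in the same 2 libraries. The secretoglobins *Scgb1a1*, *Scgb3a1* and *Scgb3a2*, small secreted proteins of club cells, had 0 reads in every BirA library and in Nc1Bio replicate 3. In Nc1Bio replicates 1 and 2 *Scgb1a1* had 39 and 24 reads, *Scgb3a1* 52 and 8, and *Scgb3a2* 26 and 21. *Bpifb1*, a gene of the same family as *Bpifa1* that starts 41.6 kb beyond its end, had 60 and 17 reads there and 0 elsewhere. *Reg3g*, an antimicrobial lectin, had 106, 18 and 3 reads in the 3 Nc1Bio libraries and 0, 2 and 0 in BirA. Against 3 reads over the BirA group, the pooled Nc1Bio reads were at least 28.9-fold higher for *Bpifb1*, 23.6-fold for *Scgb1a1*, 22.5-fold for *Scgb3a1* and 17.6-fold for *Scgb3a2*. These pooled folds rest on Nc1Bio replicates 1 and 2 alone and do not hold for replicate 3, with 0 reads of each gene. Nothing is read from them, since the genes were listed with earlier results of these data known. Further airway secretory genes did not share this pattern. *Muc16* had 14, 0 and 4 reads in BirA and 1, 1 and 2 in Nc1Bio. *Fmo2* had 7, 0 and 0 in BirA and 0, 1 and 4 in Nc1Bio. *Ces1d* had 9, 0 and 0 in BirA and 6, 4 and 0 in Nc1Bio, and *Muc5ac* had 0 reads in every library.

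The list held 20 airway secretory genes, of which 19 had a read and only *Ltf* and *Hp* passed the low-count filter, because that filter asks for enough reads in 3 libraries. *Ltf* (lactoferrin) and *Hp* (haptoglobin) are also made by granulocytes. *Ltf* had 632, 19015 and 570 reads in BirA and 521, 3824 and 7555 in Nc1Bio, and the granulocyte list summed to 437, 8736 and 445 CPM in BirA and 356, 2778 and 5324 CPM in Nc1Bio. Both were highest in BirA replicate 2 and next in Nc1Bio replicates 3 and 2, the order of the granulocyte list, and Nc1Bio replicate 2 was thus rich both in these and in *Bpifa1*. *Ltf* is itself on the granulocyte list, so its match to that list's sum is in part a match to itself. The part of granulocytes in the levels of *Ltf* and *Hp* was not tested. The edgeR quasi-likelihood test called neither (Benjamini-Hochberg adjusted p = 0.902 for *Ltf* and 0.908 for *Hp*). DESeq2, which gave an adjusted p to 10 genes of the list, called 3, namely *Bpifa1*, *Cyp2f2* and *Reg3g*. The first 2 had been picked for their Nc1Bio reads, and all 3 calls rest on high reads in Nc1Bio replicates 1 and 2, so nothing is read from them.

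With *Ltf* and *Hp* left out, a choice made after their values were seen, the 18 remaining airway secretory genes summed to 38, 14 and 19 reads in BirA and to 786, 305 and 31 reads in Nc1Bio replicates 1, 2 and 3. Replicate 3 of Nc1Bio thus lay inside the BirA range while replicates 1 and 2 lay above it. *Bpifa1* alone made up 46.4% and 49.5% of these reads in replicates 1 and 2. Without *Bpifa1* and *Cyp2f2* the 16 other genes had 347 and 105 reads there, against 14 to 37 in BirA and 21 in Nc1Bio replicate 3. The list was chosen with earlier results of these data known, so these reads are a description and not separate support. Nc1Bio replicate 1 was also the shallowest of the 6 libraries, with 11845952 unique gene reads.

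The airway genes of Nc1Bio replicates 1 and 2 are given as ratios of these 2 libraries, after scaling for depth. Their intervals (exact, 95%) cover counting error within 2 single libraries and not the spread between samples, so the ratios are a description. Replicate 1 exceeded replicate 2 by 2.65-fold for *Bpifa1* (2.19 to 3.23) and by 1.66-fold for *Cyp2f2* (1.14 to 2.43). For the secretoglobins *Scgb3a2*, *Scgb1a1* and *Scgb3a1* the ratios were 1.36 (0.74 to 2.54), 1.78 (1.05 to 3.10) and 7.13 (3.37 to 17.4). For *Bpifb1*, *Reg3g* and *Cbr2*, a carbonyl reductase, they were 3.87 (2.23 to 7.08), 6.46 (3.90 to 11.3) and 7.46 (2.90 to 24.4). *Cbr2* was also read in BirA, with 7, 10 and 14 reads, and its 5 reads in Nc1Bio replicate 2 were fewer than in any BirA library.

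**Figure D3:**
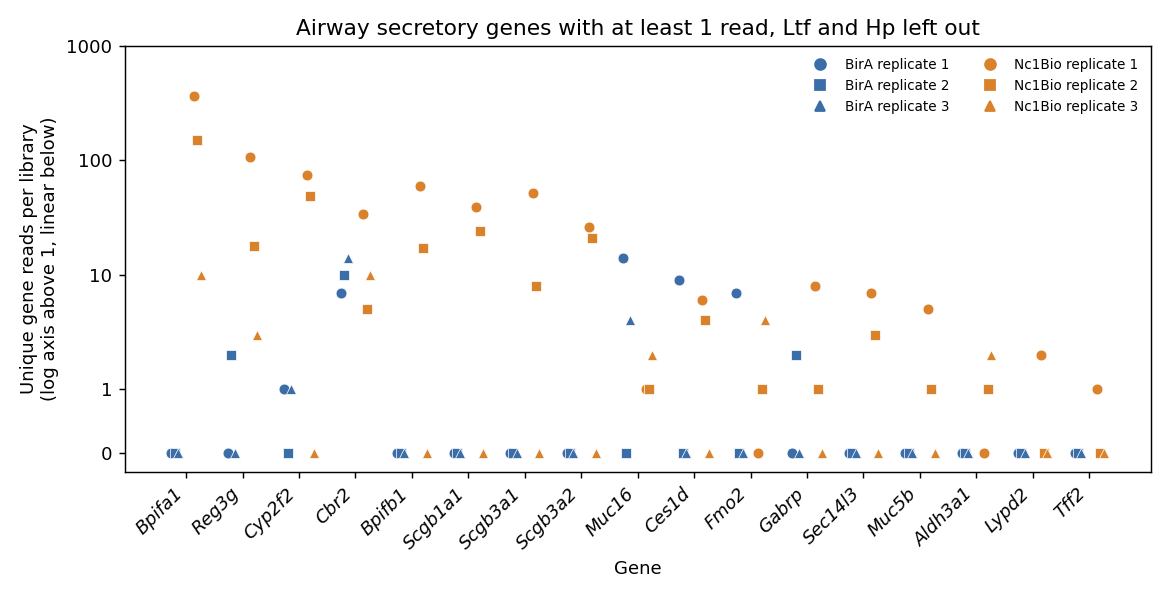
Unique gene reads per library of the 17 airway secretory genes with at least 1 read, *Ltf* and *Hp* left out, ordered by their total; the axis is logarithmic above 1 and linear below. Points are libraries, blue for BirA and orange for Nc1Bio; *Bpifb1*, *Scgb1a1*, *Scgb3a1* and *Scgb3a2* sit at 0 in all BirA libraries and in Nc1Bio replicate 3.

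Markers of neighbouring lung and gland cells were low. *Sftpc*, the defining surfactant gene of alveolar cells, was at 0 in all 6 libraries. *Sftpa1* had 5, 3 and 0 reads and *Sftpd* 6, 1 and 0 reads in Nc1Bio and none in BirA, while *Sftpb* had 2, 3 and 0 in BirA and 0, 5 and 0 in Nc1Bio. *Napsa* and *Hopx*, the alveolar list's most abundant genes, are made by other cells as well and led its sum of 11.7 to 36.3 CPM in BirA and 9.85 to 14.6 CPM in Nc1Bio. The 10 genes of ciliated airway cells summed to 3.13 to 6.34 CPM in BirA and 3.26 to 5.78 CPM in Nc1Bio, with *Ccdc153*, *Foxj1* and *Tppp3* in the lead. Of the 9 salivary gland genes 5 were at 0 everywhere, among them *Bpifa2*, the parotid relative of *Bpifa1*. Keratins of surface epithelium gave few reads and had no common pattern. *Krt15* had 10, 2 and 0 reads and *Krt4* 2, 2 and 0 in Nc1Bio and none in BirA, whereas *Krt19* had 55, 1 and 0 in BirA and 8, 8 and 1 in Nc1Bio, and *Krt7* 6, 0 and 6 and 2, 1 and 15.

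*Aire* (ENSMUSG00000000731, chromosome 10, 78030022 to 78043610, - strand), the regulator that lets medullary epithelium express genes of other tissues, had 1, 0 and 0 reads in BirA and 6, 6 and 0 in Nc1Bio. Of 19 *Aire* reads in all 13 mapped uniquely, and with total gene reads BirA replicate 3 had 5, against 7 and 6 in Nc1Bio replicates 1 and 2. At 13 unique reads the level was close to the limit of counting, and the log2(CPM + 0.1) difference of 1.42 had an exact two-sided permutation p of 0.40, where 0.1 is the smallest p that 3 against 3 libraries allow. With total gene reads the difference was 0.69 (exact permutation p = 0.60). The gene overlaps *Dnmt3l* on the opposite strand over 1664 bases, and *Dnmt3l* had 42 reads over all libraries. Whether strand was used in counting is not stated, so reads of the shared bases cannot be assigned to either gene. Of the *Aire* exon reads 9 of 13 crossed a junction. *Fezf2*, the other regulator of this kind in medullary epithelium, had 1 read in all 6 libraries.

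Of the 8 thymic and epithelial genes, 4 passed the low-count filter and could be tested in the fit over all genes: *Prss16*, *Ccl25*, *Krt8* and *Epcam*. The edgeR quasi-likelihood test called none of them at an adjusted p under 0.05, and 0 were under 0.05 before adjustment. The count was also 0 with DESeq2 and with limma-voom. Over all genes edgeR called 1 of 12224 (0.00818%), which was *Nfatc1*, and DESeq2 called 2.48% of the 13129 genes to which it gave an adjusted p. In none of the 4 did the groups separate. Since the tissue was measured in bulk, fewer cells of a kind and less RNA per cell cannot be told apart for any of these genes.

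*Epcam* (ENSMUSG00000045394, chromosome 17, 87635979 to 87651129, + strand), an adhesion molecule of epithelium that mouse thymocytes also carry, was the most abundant of the 8. It stood at 37.2, 28.0 and 26.2 CPM in BirA and 36.4, 44.8 and 19.9 CPM in Nc1Bio. The Nc1Bio libraries included both the highest and the lowest value. The Nc1Bio to BirA difference in log2 was 0.14 (SE 0.29), not significant in edgeR (adjusted p = 0.870). *Cdh1*, which encodes E-cadherin and led the general epithelial list, gave 0.52 (SE 0.19; edgeR adjusted p = 0.369).

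*Ccl25* (ENSMUSG00000023235, chromosome 8, 4325210 to 4360020, + strand) encodes the ligand of Ccr9 that draws precursors into the thymus. Its levels were 7.13, 2.49 and 2.15 CPM in BirA and 4.82, 3.86 and 3.16 CPM in Nc1Bio. BirA replicate 1 stood above all other libraries and the other BirA libraries below all Nc1Bio libraries, so that the group means were near one another, at 3.93 ± 2.78 and 3.95 ± 0.84 CPM (SD, n = 3 each). The log2 fold change was 0.01 (SE 0.52; edgeR adjusted p = 0.997). Its sign turned to -0.23, -0.28 or -0.16 without BirA replicate 2, BirA replicate 3 or Nc1Bio replicate 1, and it was 0.76 without BirA replicate 1, with no call in any.

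Of the exon reads of *Ccl25*, 30.8% crossed a junction, above the 23.4% of the median tested gene. Introns held 26.6% of its gene reads (Wilson 95% interval 22.1 to 31.8, 319 reads), and this share ran from 9.76% in Nc1Bio replicate 3 to 36.4% in BirA replicate 1, the library with the most reads. Its annotated span overlaps the first bases of *Elavl1*, on the opposite strand and with 2200 to 2875 reads per library, over 204 bases. How many *Ccl25* reads came from *Elavl1* was not tested.

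*Prss16* (ENSMUSG00000006179, chromosome 13, 22002173 to 22009742, - strand), the thymus-specific serine protease of cortical epithelium, varied widely among the libraries. It stood at 6.63, 1.28 and 1.87 CPM in BirA and at 3.16, 0.91 and 5.93 CPM in Nc1Bio, a 7.29-fold range that both groups spanned. The within-group SD of its log2 level was 1.26, whereas the median over the tested genes was 0.22. The log2 fold change was 0.03 (SE 0.80; edgeR adjusted p = 0.991), and leaving out BirA replicate 2, BirA replicate 3 or Nc1Bio replicate 3 turned it to -0.35, -0.24 or -0.68.

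The libraries highest in *Prss16*, BirA replicate 1 and Nc1Bio replicate 3, were also those highest in erythroid genes, and Nc1Bio replicate 2 was lowest in both. The erythroid list summed to 65969, 30725 and 20038 CPM in BirA and 40663, 17621 and 97388 CPM in Nc1Bio. *Kcnj8*, *Dsel* and *Klf10* had the patterns most like that of *Prss16* (Pearson r of log2(CPM + 1) of 0.982, 0.985 and 0.977 over 6 libraries, searched among 12223 genes). The part of erythroid or stromal RNA in the spread was not tested.

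*Krt8* (ENSMUSG00000049382, chromosome 15, 101996698 to 102004482, - strand), a keratin of simple epithelium and of cortical and part of medullary thymic epithelium, had 13, 1 and 0 reads in BirA and 9, 1 and 15 in Nc1Bio. The groups overlapped throughout. Its log2 fold change stood at 0.99 (SE 1.32; adjusted p = 0.801 in edgeR) and ran from 0.31 to 3.98 over the alternatives, the highest without BirA replicate 1. Its partner in simple epithelium, *Krt18*, went in the other direction at -0.62 (SE 0.49; edgeR adjusted p = 0.650). Of 59 *Krt8* reads 39 mapped uniquely, so the gene's level is uncertain where near-identical copies share reads.

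*Krt5* (ENSMUSG00000061527), a keratin of basal and medullary epithelium that lies 284 kb from *Krt8* on chromosome 15 (101707070 to 101712898, - strand), was seen in 3 libraries. It had 0, 2 and 8 reads in BirA and 0, 0 and 15 in Nc1Bio. The reads thus came from other libraries than those with airway genes. The difference on the log2(CPM + 0.1) scale was -0.08, with an exact permutation p of 1, and it turned to 0.10 with a pseudocount of 1 CPM. *Krt17* had a similar distribution in Nc1Bio, with 0, 1 and 36 reads, and 8, 5 and 5 in BirA. *Krt14*, the usual partner of *Krt5*, had 5 reads in BirA replicate 1 and none elsewhere.

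*Psmb11* (ENSMUSG00000072423, chromosome 14, 54621433 to 54629556, + strand) had 2, 1 and 0 reads in BirA and 2, 0 and 0 in Nc1Bio, and *Foxn1* (ENSMUSG00000002057, chromosome 11, 78357577 to 78386558, - strand) had 2 reads in BirA replicate 2 alone. None of these reads crossed an exon junction. A difference between the groups was not detectable at this depth for either gene: the exact permutation p was 1 for both. *Dll4*, the Notch ligand of cortical epithelium, had 2 reads in all. *Cxcl12* had 20, 2 and 3 reads in BirA and 3, 7 and 42 in Nc1Bio, again highest in the libraries with most *Prss16*, though mesenchyme also makes it.

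Per length of exon the genes could be ranked against each other. In unique exon reads per 1000 exon bases and per 1000000 exon reads, averaged over the 6 libraries, *Epcam* led at 14.9 with a range of 8.52 to 21.2. *Prss16* followed at 0.78, *Ccl25* at 0.39, *Krt8* at 0.24, *Krt5* at 0.14, *Aire* at 0.046, *Psmb11* at 0.013 and *Foxn1* at 0.0069. The highest *Prss16* library, at 1.57, was below the lowest *Epcam* library, but from *Prss16* on down the ranges of neighbours in this order overlapped. On the same scale *Bpifa1* reached 20.2 in its highest library and averaged 9.49 in Nc1Bio, and *Cyp2f2* averaged 1.69 ± 1.59 there (SD, n = 3). In that one library *Bpifa1* was thus within the range of *Epcam*, while *Cd3g*, a gene of every T lineage cell, averaged 295.

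The wider marker lists did not set the groups apart in the edgeR test. Of 17 cortical genes 5 were tested, 3 with a fold change above 0 and 2 below, and 0 were called (1 had an unadjusted p under 0.05, *Cd83*, which dendritic and B cells also express). Of 20 medullary genes 6 were tested, 3 above and 3 below 0, and 0 were called (2 with an unadjusted p under 0.05, *Cldn4* and *Pou2f3*). Of 16 general epithelial genes 4 were tested and 0 called (1 with an unadjusted p under 0.05, *Cdh1*). DESeq2 called 0 on each of the 3 lists. The median log2 fold changes were 0.01, 0.05 and 0.33, beside -0.0026 over all tested genes. *Spib*, *Cldn4* and *Ltbr* led the medullary list by reads, and *Spib* and *Ltbr* are genes of immune cells too.

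Other cells of the thymus varied among the libraries as well. The mesenchyme list summed to 97.3, 50.6 and 56.2 CPM in BirA and 31.2, 33.9 and 41.4 CPM in Nc1Bio. B lineage genes summed to 122 to 339 CPM in BirA and 53.0 to 84.2 CPM in Nc1Bio, and dendritic cell genes to 407 to 1714 CPM and 106 to 377 CPM. On these 3 lists all Nc1Bio libraries lay below all BirA libraries. For scale, the groups did not overlap in 18.4% of the 12224 tested genes taken singly. The edgeR quasi-likelihood test called 0 of the 18 tested genes of these last 3 lists. Of the 18, 10 had an unadjusted edgeR p under 0.05, a count for which no share over all genes was worked out. DESeq2 called 5, and 2.48% of all genes to which it gave an adjusted p. BirA replicate 1 was the highest on all 3, as it was for *Prss16* and *Ccl25*. Their part in the levels of the 10 genes was not tested. Of the Nc1Bio libraries, replicate 1 was the highest on the B lineage and dendritic cell lists and the lowest on the mesenchyme list, and replicate 2 was the lowest on the first 2.

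**Figure D4:**
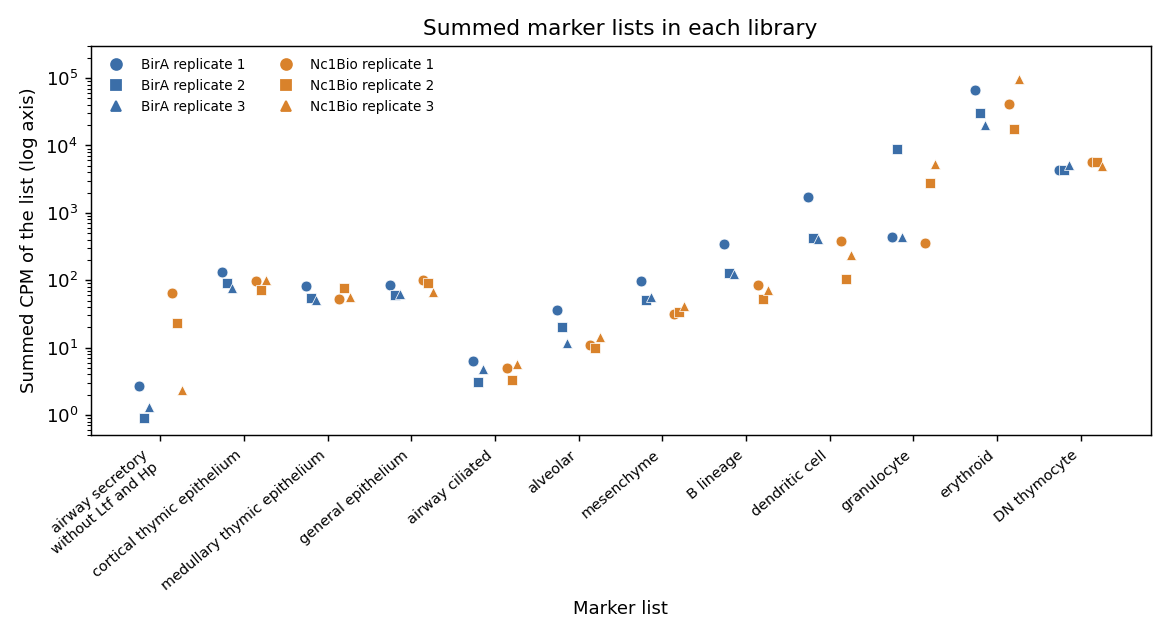
Summed CPM of 12 marker lists in each library, on a logarithmic axis; points are libraries (blue BirA, orange Nc1Bio, shapes for replicates). The airway secretory genes without *Ltf* and *Hp* reach 65.4 and 23.1 CPM in Nc1Bio replicates 1 and 2 and 0.90 to 2.74 CPM in the other libraries, while the cortical, medullary and general epithelial lists overlap between the groups. Much of the epithelial sums comes from genes that other thymic cells also express, among them *Ctsl*, *Spib* and *Epcam*, so the sums do not measure epithelium alone.

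By their pattern over the 6 libraries, the tested genes most like *Bpifa1* were *Eef2k*, *Mri1* and *Mien1* (Pearson r 0.999, 0.985 and 0.984 of log2(CPM + 1)), and those most like *Cyp2f2* were *Pih1d1*, *Spint2* and *Tnr* (0.999, 0.992 and 0.989). All 6 had reads in every library. *Eef2k*, for example, stood at 159 to 160 CPM in BirA and at 201, 187 and 164 CPM in Nc1Bio. For *Ccl25* the closest were *Sidt1*, *Ppp1r3e* and *Il11ra1* (0.987, 0.980 and 0.980), and for *Epcam* they were *Itgb4*, *Gm17494* and *Sgsh* (0.988, 0.986 and 0.984). *Itgb4*, which encodes the integrin chain of epithelial attachment sites, stood at 28.7, 18.9 and 19.8 CPM in BirA and 25.7, 35.5 and 12.2 CPM in Nc1Bio. The points are the same 6 libraries for each pair, and so many genes were searched that high values arise readily.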

How the data were processed

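Libraries of poly(A) RNA from magnetically enriched DN thymocytes were sequenced, 3 for BirA and 3 for Nc1Bio. The authors deposited 1 table per library with whole-number counts of unique and total reads per gene, exon, intron and junction, and with normalised columns that were not used here. The methods name cutadapt, STAR and featureCounts, but the tables' layout is not that of featureCounts, and no source used here names the program that wrote them. The build is GRCm38, per the submitters' processing notes.

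Unique gene reads (11845952 to 15393763 per library) were filtered with filterByExpr, scaled by TMM and tested with the edgeR 4.0.16 quasi-likelihood test in R 4.3.3, with genotype as the single term and Benjamini-Hochberg adjustment over 12224 genes. CPM use TMM-scaled totals. Genes under the filter were compared by two-sided exact permutation on log2(CPM + 0.1) with scipy 1.17.1. The steps were tested on simulated data. Intervals and floors of 3 reads cover counting error only, and reads are not molecules. None of the 15 pairs of libraries agreed within sampling noise.

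Members and lists were chosen with earlier results of these data known. Named genes are the 10 genes, the 3 most-read genes of each list, genes called, overlapping genes and the 3 genes of most like pattern for members with a mean of 10 reads or more. Others were named after their values were seen. *Trp63* was looked up for the listed Tp63. Alternatives were DESeq2 1.42.0, limma 3.58.1 (voom), RLE scaling, leaving the filter out or requiring 1 CPM in 3 libraries, the replicate number as a block, other count columns and leaving out each library.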

Additional observations from a re-analysis of the deposited data

How the results depend on the processing

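None of the 8 thymic and epithelial genes was called under the 15 alternatives to the edgeR fit, but 14 of these gave an adjusted p to only 3 or 4 of them, and *Psmb11*, *Foxn1*, *Aire* and *Krt5* could be called in 1 alone, the fit without a low-count filter. The count of all genes called, 1 in the fit reported, was 156 without a low-count filter, 326 with DESeq2 and 2 with the replicate number as a replicate block, and ranged from 0 (without BirA replicate 2 or Nc1Bio replicate 2) to 2 (without BirA replicate 3) with 1 library left out. Without Nc1Bio replicate 1 or 3 the 1 gene called was lower in Nc1Bio, whereas the call of the fit reported, *Nfatc1*, was higher. Same-numbered libraries deviated together with correlations of 0.33, 0.12 and -0.082, so the numbers were not taken to pair them. The cause of the changes in count was not tested. Signs of small differences were unstable. With 1 library left out the log2 fold change ranged from -0.68 to 1.08 for *Prss16*, -0.28 to 0.76 for *Ccl25* and -0.11 to 0.42 for *Epcam*. On the log2(CPM + 0.1) scale, libraries left out one at a time (chosen after seeing the data) gave -0.67 to 0.11 for *Psmb11*, -0.54 to 0.75 for *Prss16*, -0.12 to 0.72 for *Ccl25*, -0.59 to 0 for *Foxn1*, -1.30 to 0.62 for *Krt5* and -0.16 to 0.42 for *Epcam*, whereas *Aire* (0.97 to 2.27) and *Krt8* (0.47 to 2.16) kept their sign. The level difference of *Prss16* was -0.0034 with total gene reads and -0.016 with unique exon reads, and that of *Krt5* 0.10 with a pseudocount of 1 CPM and 0.098 with total gene reads. No direction is therefore given for these genes. Depth limits *Psmb11*, *Foxn1* and *Aire*, with 20 reads in all.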
